A study of Mus musculus with 4 samples.

Results

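Bod1l, Fyco1, Purg, Gimap9 and Gm340 are 5 mouse protein-coding genes whose RNA was recovered strongly with SAFB (scaffold attachment factor B). They were chosen by their SAFB over IgG ratios, as multi-exon coding genes with some of the largest ones that belong to no zinc finger, golgin or nucleolar group. They are 5 of the 52189 genes in the deposited table, and all 5 were among the 16647 genes tested. Since these TPM ratios selected them, their own values are a description and carry no test.

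The data come from RNA immunoprecipitation and sequencing (RIP-seq) in AML12, a line of mouse hepatocytes that is not of tumour origin and was derived from mice with a transforming growth factor alpha transgene. All cells were grown with 10% serum, ITS supplement and 0.1 µM dexamethasone, and exposed to ultraviolet light to fix RNA to protein before lysis and sonication of the nuclei. Lysate was divided between control IgG (2 libraries) and anti-SAFB (2 libraries), which makes up the only comparison, and no genotype or treatment differed between the groups. The study set out to identify the RNAs that associate with SAFB in these cells. The labels do not state which libraries came from 1 dish or lysate, so p-values measure only the spread between these libraries, which may be technical. Values are TPM, a share of each library per transcript length, and the read depth is unknown.

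SAFB is a nuclear matrix protein that binds both RNA and DNA and is known to favour purine-rich RNA of the GAAGAA kind. In a RIP, an RNA held by the protein takes a larger share of the antibody library than of the IgG library, which records what sticks without a specific antibody. The 5 genes have unlike roles. BOD1L, the large relative of the mitotic protein BOD1, protects stalled replication forks from resection and works with SETD1 histone methyltransferases. FYCO1 is an adaptor that couples RAB7 and LC3 on autophagosomes and late endosomes to kinesin. PURG is a member of the PUR family of single-stranded nucleic acid binding proteins. GIMAP9 is a GTPase of a family known mainly from lymphocytes. Gm340 is a predicted coding gene named only by number.

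To show what GAAGAA matches look like in these RNAs, the 150 coding bases within 1 exon that hold the most matches were taken from each gene's longest coding transcript in GENCODE release M21 (mm10). Sequences run 5′ to 3′ on the gene's strand, and capitals mark each GAAGAA on that strand. The Bod1l stretch, chr5:41817625-41817774 on the minus strand in exon 10, holds 3 matches. The Fyco1 stretch, chr9:123829392-123829541 on the minus strand in exon 9, holds 2. The Purg stretch, chr8:33387019-33387168 on the plus strand in exon 1, holds 1. The Gimap9 stretch, chr6:48677795-48677944 on the plus strand in exon 2, holds 1. The Gm340 stretch, chr19:41584178-41584327 on the plus strand in exon 2, holds 2.
Bod1l: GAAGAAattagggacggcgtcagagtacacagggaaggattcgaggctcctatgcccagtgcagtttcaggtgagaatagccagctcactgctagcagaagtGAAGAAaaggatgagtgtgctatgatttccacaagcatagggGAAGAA
Fyco1: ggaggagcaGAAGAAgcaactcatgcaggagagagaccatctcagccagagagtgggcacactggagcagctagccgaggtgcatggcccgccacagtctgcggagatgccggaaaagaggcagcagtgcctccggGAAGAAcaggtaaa
Purg: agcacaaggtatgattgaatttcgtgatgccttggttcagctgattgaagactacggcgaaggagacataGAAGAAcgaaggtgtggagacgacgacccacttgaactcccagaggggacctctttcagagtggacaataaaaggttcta
Gimap9: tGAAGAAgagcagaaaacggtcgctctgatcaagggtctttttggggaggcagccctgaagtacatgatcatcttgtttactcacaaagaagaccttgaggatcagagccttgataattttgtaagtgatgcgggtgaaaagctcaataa
Gm340: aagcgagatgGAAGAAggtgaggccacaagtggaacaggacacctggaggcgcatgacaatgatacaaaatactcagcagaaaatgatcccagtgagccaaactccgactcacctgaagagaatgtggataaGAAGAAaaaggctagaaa
Among 10945 tested coding genes with such a stretch, 4.77% had at least 3 matches in their best one and 16.8% had at least 2. The Bod1l stretch thus stood among the richer ones, while at least as many matches as in Purg and Gimap9 were found in 52.5% of genes. These shares are not adjusted for length, and a longer coding sequence offers more stretches to choose from. Bod1l has 9096 coding bases, against 975 in Purg and 873 in Gimap9. Purines made up 64% of the Bod1l stretch, 66% of the Fyco1 stretch, 60% of the Purg stretch, 58% of the Gimap9 stretch and 68.7% of the Gm340 stretch. A match is a description of the letters and does not mark a bound site.

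Bod1l (ENSMUSG00000061755, chr5:41787538-41844315, minus strand) stood at 22.3 and 24.5 TPM in the IgG libraries and at 250.6 and 243 TPM in the SAFB libraries. Both SAFB libraries were about equally high, and both IgG libraries were low. The means were 23.4 ± 1.55 and 247 ± 5.08 TPM (SD, n = 2), and the log2 fold change was 3.35 ± 0.12 (SE) on the log2(TPM + 1) scale. The ratio of the means was 10.5, and single SAFB libraries lay between 9.93 and 11.2 times single IgG libraries.

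Fyco1 (ENSMUSG00000025241, chr9:123789500-123851899, minus strand) had the highest level of the 5 in both kinds of precipitate. It stood at 88.0 and 90.4 TPM in the IgG libraries and at 780.3 and 753 TPM in the SAFB libraries. The means were 89.2 ± 1.64 and 766 ± 19.6 TPM (SD, n = 2), and the log2 fold change was 3.09 ± 0.09 (SE). This was the smallest fold change of the 5 and also the one with the smallest error. The ratio of the means was 8.59, with pairs of single libraries between 8.33 and 8.86.

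Purg (ENSMUSG00000049184, chr8:33386325-33417467, plus strand) had the lowest level of the 5 in both kinds of precipitate. Its IgG libraries differed, at 11.2 and 18.6 TPM, and its SAFB libraries were close together, at 158 and 164 TPM. The means were 14.9 ± 5.18 and 161 ± 4.47 TPM (SD, n = 2), and the log2 fold change was 3.39 ± 0.26 (SE). The ratio of the means was 10.8, but single pairs of libraries ranged from 8.51 to 14.6, a width set mainly by the IgG side.

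Gimap9 (ENSMUSG00000051124, chr6:48676129-48679114, plus strand) had the widest spread in TPM within both groups. It stood at 36.6 and 59.4 TPM in the IgG libraries and at 513 and 409.7 TPM in the SAFB libraries. Even so, the lower SAFB library lay 6.89 times above the higher IgG library. The means were 48.0 ± 16.1 and 461 ± 73.0 TPM (SD, n = 2), and the log2 fold change was 3.27 ± 0.27 (SE), with a ratio of the means of 9.60.

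Gm340 (ENSMUSG00000090673, chr19:41582370-41586536, plus strand) had the largest log2 fold change of the 5. It stood at 40.3 and 49.7 TPM in the IgG libraries and at 522 and 476 TPM in the SAFB libraries. The means were 45.0 ± 6.66 and 499 ± 32.8 TPM (SD, n = 2), and the log2 fold change was 3.45 ± 0.14 (SE). The ratio of the means was 11.1, with single pairs between 9.58 and 13.0.

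The groups did not overlap in 5 of the 5 genes, where 52.3% of all genes tested had both SAFB libraries above both IgG libraries. By limma all 5 passed an adjusted p of 0.05 as higher, as did 29.8% of all genes tested. Both counts follow from how the genes were chosen. Both SAFB libraries lay below both IgG libraries for 21.4% of all genes, and 8.3% were called lower. Among the 11961 coding genes tested the shares were 28.3% higher and 10.1% lower. The median log2 fold change was 3.35 over the 5 and 0.46 over all genes tested. Centring each library on its median, which moves all genes by that shift, left the 5 at 2.63 (Fyco1) to 2.99 (Gm340), all still called. After centring, 16.4% of all genes were higher and 17.6% lower (14.5% and 21.8% of coding genes). Together the 5 genes held 198 to 243 TPM of each IgG library and 2046 to 2224 TPM of each SAFB library.

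**Figure D1:**
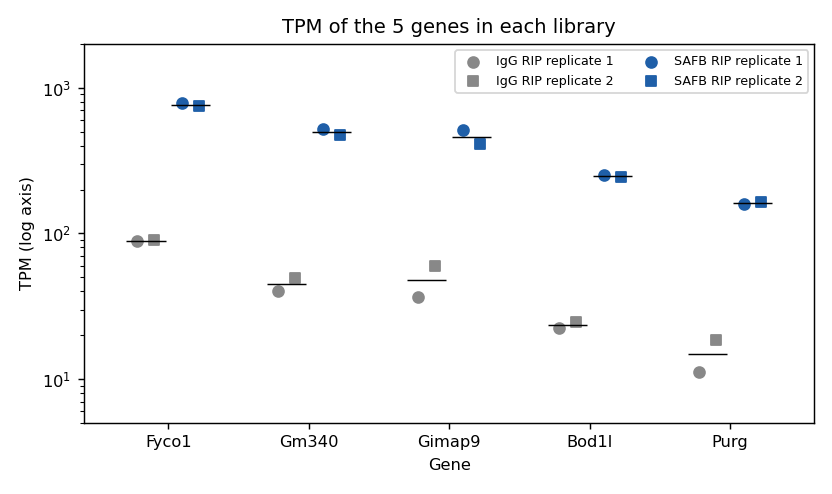
TPM of the 5 genes (log axis) in the 2 IgG libraries (grey) and the 2 SAFB libraries (blue), with bars at the group means. Fyco1 is highest and Purg lowest in both groups, and the IgG libraries of Purg (11.2 and 18.6 TPM) and Gimap9 (36.6 and 59.4 TPM) lie farthest apart.

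The order of the levels was much alike in both precipitates. In the SAFB libraries Fyco1 was highest, Gm340 and Gimap9 overlapped in the middle, Bod1l came next and Purg was lowest. In the IgG libraries Gimap9 and Gm340 again overlapped, between Fyco1 above and Bod1l and Purg below. Among 11961 tested coding genes, IgG levels were spread out, and that of Fyco1 was already high. There, 34.1% of genes lay below Purg, 45.5% below Bod1l, 65.5% below Gm340, 67.6% below Gimap9 and 84.6% below Fyco1. In the SAFB precipitate all 5 stood near the top, with 91.3% of coding genes below Purg and 99.3% below Fyco1, which ranked 80. A choice by large SAFB over IgG ratios favours such a shift.

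**Figure D2:**
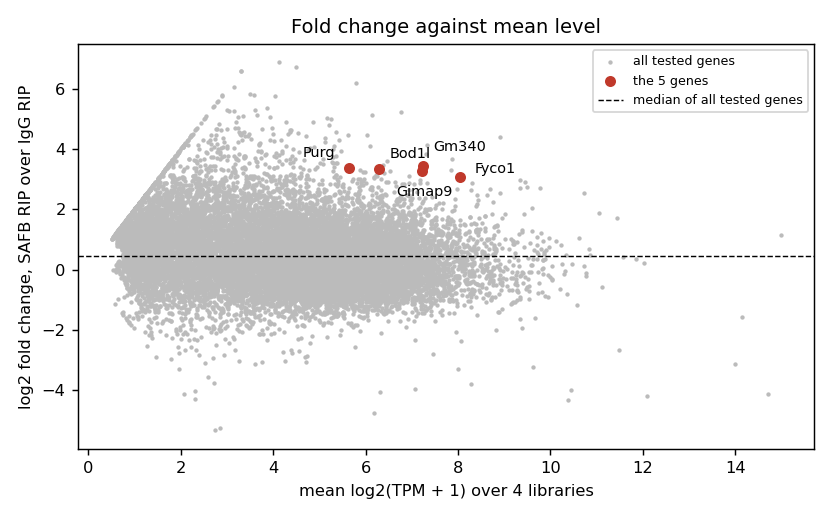
Log2 fold change (SAFB RIP over IgG RIP) against mean log2(TPM + 1) over the 4 libraries for 16647 genes (grey), with the 5 genes in red and the median of all tested genes, 0.46, dashed. The 5 genes lie between 3.09 and 3.45, all above the dashed line.

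Among the 11581 tested coding genes with more than 1 exon, ranked by log2 fold change, Gm340 was 17th, Purg 21st, Bod1l 25th, Gimap9 30th and Fyco1 48th. The genes next to them differed little in fold change, which follows from taking adjacent ranks among many genes. Fam72a (3.47) and Gm5741 (3.44) stood on either side of Gm340, Fastkd5 (3.35 ± 0.17, SE) just above Bod1l, Utp14a (3.28) and Zfp551 (3.25) around Gimap9, and Mis12 (3.09) and Anks4b (3.09) around Fyco1. Moap1 (just below Bod1l), Gm7168 (just below Purg) and Gm5741 were listed at 0 in both IgG libraries, so their places rest on the pseudocount. Fam72a was listed at 0 in IgG replicate 1, and its place depends on the pseudocount too. With a pseudocount of 0.1 the log2 fold change of Fam72a was 5.31 and its call was lost. Counting from Fyco1 upwards, 43 other multi-exon coding genes ranked as high. Of these, 38 had a lower SAFB mean than Purg and 15 were listed at 0 in at least 1 IgG library. The 5 with a SAFB mean at or above that of Purg were Tmf1 (3.48), which encodes a golgin, and the zinc finger genes Zfp146 (3.48), Zfp790 (3.30), Zfp407 (3.23) and Zfp970 (3.20), which belong to groups the choice left out.

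The genes with the most similar values over all 4 libraries were found by Euclidean distance in log2(TPM + 1) among tested coding genes. For Bod1l they were Anks4b (distance 0.36), Tmf1 (0.40) and Fam168a (0.42), where the median coding gene lay 4.52 away. For Fyco1 they were Dido1 (0.45), Zbed6 (0.49) and Hspd1 (0.72), with a median of 6.85. For Purg they were Zfp790 (0.54), Mis12 (0.57) and Dnttip2 (0.65), with a median of 4.26. Gimap9 and Gm340 shared their nearest genes: Zfp146 lay 0.25 from Gimap9 and 0.22 from Gm340, and Birc2 lay 0.34 and 0.66 away. The third gene was Tcf20 for Gimap9 (0.66) and Lrrfip1 for Gm340 (0.66). Likeness over 4 libraries in 2 groups mainly reflects level and fold change.

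The choice asked for more than 1 exon but used no exon length, and each gene carries most of its coding sequence in 1 exon. Purg, Gimap9 and Gm340 have only 2 exons, so for them a majority in 1 exon follows from the exon number. Bod1l-201, with 27 exons and 10540 nt, holds 65.4% of its 9096 coding bases in exon 10, which spans 5953 bases (chr5:41816208-41822160). Fyco1-201, with 19 exons and 7949 nt, holds 53.4% of its 4311 coding bases in the 2304 bases of exon 9 (chr9:123828176-123830479). Purg-202, with 2 exons and 1795 nt, holds 873 of its 975 coding bases (89.5%) in exon 1, and a second coding transcript, Purg-201, is a single exon of 1064 nt. Gimap9-201, with 2 exons and 1384 nt, has all 873 coding bases in exon 2. Gm340-201, also with 2 exons, holds 80.2% of its 3726 coding bases in exon 2, in a stretch of 2990 bases.

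Among the 11581 tested coding genes with more than 1 exon, 99.8% had a shorter longest coding exon than Bod1l, 98.8% than Gm340, 97.7% than Fyco1 and 84.7% than Purg and Gimap9. The median was 267 bases. The share of coding sequence in that exon was above that of 81.7% of these genes for Fyco1 and up to 96.6% for Gimap9, with a median of 25.2%. This share depends on the exon number, and no comparison with genes of equal exon number was made. Transcript length and exon number, set against all tested coding genes, varied widely among the 5. Transcripts of 98.1% of genes were shorter than that of Bod1l, but only 12.5% were shorter than that of Gimap9, and Bod1l and Fyco1 had more exons than most genes while the other three had 2 against a median of 9.

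Base composition leaned the same way in the 5 transcripts. A made up 33.6% of bases in Bod1l, 30.6% in Gimap9, 30.4% in Gm340 and 28.6% in both Fyco1 and Purg, against a median of 25.3% over tested coding genes. Between 81.3% (Fyco1 and Purg) and 98.5% (Bod1l) of genes had less A. Purines made up 58.6% in Bod1l, 56.8% in Gm340, 53.6% in Gimap9, 53.3% in Fyco1 and 53.1% in Purg, with a median of 50.7%. GC content was not shared: Gimap9 (42.6%) and Bod1l (45.4%) were low, while Fyco1 (50.2%) and Gm340 (50.8%) were near the median of 50.2%.

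GAAGAA matches over the whole transcript varied among the 5. Bod1l held 2.94 per kb and Gimap9 2.17 per kb, more than 97.1% and 93.1% of coding genes. Fyco1 (1.38 per kb) stood above 79.4% of genes, Gm340 (0.81 per kb) above 55.0% and Purg (0.56 per kb) above 38.8%, with a median of 0.72. Within the coding sequence alone, Bod1l (3.41 per kb) stood above 91.7% of genes and Fyco1 (1.86 per kb) above 73.4%. Gimap9 (1.15 per kb, above 55.5%), Purg (1.03 per kb, above 51.9%) and Gm340 (0.81 per kb, above 44.3%) stood near the middle there. Matches were counted on the transcript strand. The densities of Gimap9, Gm340 and Purg rest on few matches, as their transcripts are 1384, 3729 and 1795 nt long. Their places would shift with 1 match more or less. Runs of at least 20 purines were found in Bod1l, at 0.19 per kb, and in none of the other four transcripts.

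These features moved with the log2 fold change across all tested coding genes, which share the same 4 libraries and are correlated in composition. Over 11961 genes, Spearman's rho was 0.64 for the A content, 0.42 for the purine content, -0.51 for the GC content and 0.34 for GAAGAA per kb. It was 0.22 for the longest coding exon. The median log2 fold change was -0.65 in the lowest decile of A content and 1.41 in the highest. Genes in the lowest decile for the longest coding exon had a median of 0.18, and those in the highest decile 1.10. Leaving out the 5 genes changed none of these rho values at 2 decimals.

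Set beside genes of like A content, the fold changes that chose the 5 genes stood high, as the choice fixed. Bod1l, Gimap9 and Gm340 were in the highest decile, and Fyco1 and Purg in the next, whose median log2 fold change was 1.02. Their own log2 fold changes exceeded the median of their decile by 1.86 (Gimap9), 1.93 (Bod1l), 2.04 (Gm340), 2.07 (Fyco1) and 2.37 (Purg). Of 1196 genes in each decile, 6 had a larger fold change than Gm340, 11 than Bod1l, 13 than Gimap9, 11 than Purg and 18 than Fyco1. With the trend on A content removed, an alternative chosen after seeing the data, the log2 fold change of Bod1l was 2.25. The part of composition or exon length in the recovery of these genes was not tested.

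**Figure D3:**
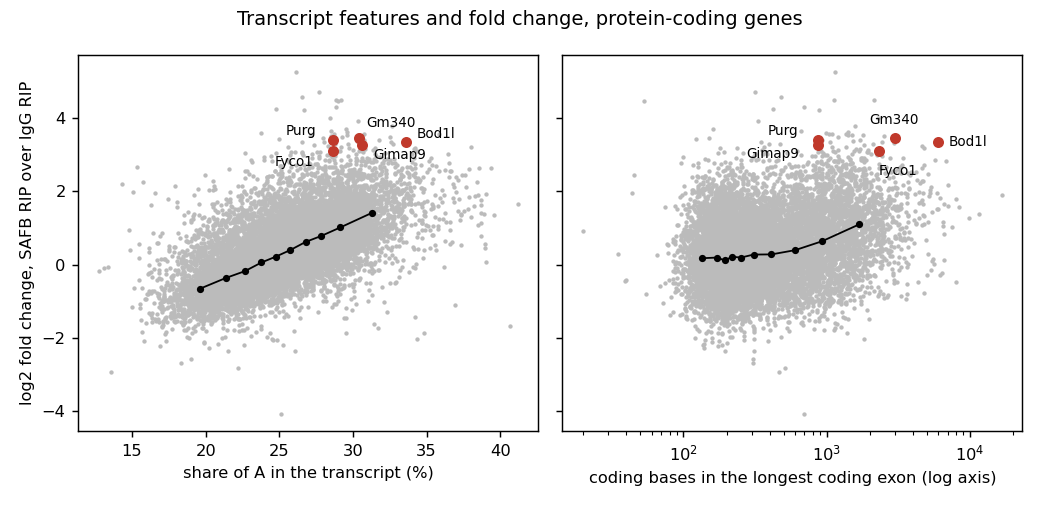
Log2 fold change (SAFB RIP over IgG RIP) of tested coding genes (grey) against the share of A in the transcript in percent (left) and the coding bases in the longest coding exon on a log axis (right). Black points are medians of deciles, which run from -0.65 to 1.41 over A content, and the 5 genes (red) lie above them in both panels.

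The nearest genes on the chromosome differed from gene to gene. Purg starts 797 bp from Wrn, a RecQ helicase gene on the opposite strand. Wrn stood at 10.5 and 15.5 TPM in the IgG libraries and at 50.5 and 48.9 TPM in the SAFB libraries, a log2 fold change of 1.88 ± 0.25 (SE; limma, adjusted p = 0.0097). Wrn was thus higher too, by a smaller fold than the value of 3.39 for Purg. The gene beyond Purg, 5930422O12Rik, lay 11241 bp away and was not called (0.72 ± 0.66, SE).

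Gm340 lies 20108 bp downstream of Lcor, a nuclear receptor corepressor gene on the same strand. Lcor stood at 67.0 and 97.3 TPM in the IgG libraries and at 358 and 299 TPM in the SAFB libraries, a log2 fold change of 2.0 ± 0.22 (SE; limma, adjusted p = 0.0072). Its IgG level was above that of Gm340 and its SAFB level below. Human LCOR is known to be spliced also to a large downstream exon, giving the Polycomb cofactor PALI1. Whether mouse RNA joins Lcor and Gm340 cannot be told apart from separate transcripts in gene-level TPM. Slit1, 13720 bp on the other side, had at most 0.51 TPM in any library.

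Fyco1 overlaps Cxcr6, a chemokine receptor gene that lies wholly inside it on the opposite strand and was listed at 0 in all 4 libraries. Ccr9 and Xcr1, the chemokine receptor genes on either side, were at or near 0 too, with at most 0.07 TPM. AC165425.1, annotated on the same strand, shares 1790 bp with the Fyco1 locus. It stood at 1.66 and 0.16 TPM in the IgG libraries and at 8.30 and 5.89 TPM in the SAFB libraries (log2 fold change 2.19 ± 0.52, SE; limma, adjusted p = 0.034, and 0.065 after median centring). Of the 7919 31-base words of Fyco1-201, 540 (6.82%) occur in transcripts of other genes, most of them (372) in AC165425.1, so a small part of its reads may be shared. Bod1l, Purg, Gimap9 and Gm340 shared 0 such words with other genes. Bod1l overlaps no gene, and its neighbours Nkx3-2 and Gm16223 were listed at 0 in all 4 libraries.

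Gimap9 lies in a cluster of Gimap genes, which encode GTPases that act in lymphocyte survival. The other 8 listed genes of the family were far lower. Gimap8, 15253 bp away on the same strand, stood at 5.93 and 2.90 TPM in the IgG libraries and at 26.6 and 22.8 TPM in the SAFB libraries (log2 fold change 2.30 ± 0.39, SE; limma, adjusted p = 0.016). Gimap4, 5434 bp away, was listed at 0 in both IgG libraries and stood at 3.23 and 3.32 TPM in the SAFB libraries. It passed the filter on low values only through the SAFB libraries, so the direction of its call was fixed. Gimap1 overlapped between the groups, from 0 to 1.82 TPM in IgG and from 0.85 to 1.69 TPM in SAFB libraries. The others were not tested: Gimap3, Gimap6 and Gimap7 were listed at 0 in all 4 libraries, and Gimap5 and Gimap1os had at most 0.34 TPM. Without SAFB replicate 1, Gimap8 missed the threshold (limma, adjusted p = 0.055) and Gimap4 was not tested. Without SAFB replicate 2, Gimap8 alone passed.

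Because Gimap genes are known from blood cells, markers of other cell types were checked. Of 14 immune markers, 8 were listed at 0 in all 4 libraries, among them Cd4 and the macrophage gene Adgre1. The pan-leukocyte gene Ptprc was listed at 0 in 3 libraries and at 0.28 TPM in 1 SAFB library. The summed level of the list was 10.0 to 17.7 TPM in the IgG libraries and 23.6 to 35.1 TPM in the SAFB libraries, most of it Cd68, a lysosomal gene, at 12.7 and 6.31 TPM against 31.5 and 21.3 TPM (limma, adjusted p = 0.056). Of 3 immune markers tested by limma, 0 passed, and at an unadjusted p under 0.05 Cd68 was higher and Lck lower. Csf1r reached at most 2.47 TPM, and Lck stood at 4.22 and 1.40 TPM in IgG and 0.19 and 0.23 TPM in SAFB libraries. Of 8 endothelial markers, 5 were listed at 0 in all 4 libraries and the list summed to at most 1.53 TPM, with Pecam1 at most at 0.77 and Vwf at most at 0.87 TPM. The hepatocyte markers summed to 7584 to 7619 TPM in IgG and 6414 to 6656 TPM in SAFB libraries, with Trf (transferrin), Ttr (transthyretin) and Krt8 (a keratin) the highest. Others were low: Afp was listed at 0 in both IgG libraries, Tat reached at most 3.78 TPM and Fgb at most 7.59 TPM. Trf fell by 0.59 on the log2 scale (limma, adjusted p = 0.037), while Ttr (-0.13 ± 0.12, SE) and Krt8 (-0.04 ± 0.13) were not called. Of the 15 hepatocyte markers tested, 2 were higher and 2 lower (0 and 7 after median centring). Among coding genes, 28.3% and 10.1% were called (14.5% and 21.8% after centring). Of the 2 higher markers, Afp passed the filter only through the SAFB libraries, so its direction was fixed. The call of Trf was lost with a pseudocount of 0.1, without the filter on low values and without a variance trend. It was also lost with the GC, length or A content trend removed. Without SAFB replicate 1 the log2 fold change of Trf was -0.50.

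Genes that work with BOD1L were mixed. Of 26 genes for SETD1 complexes and for protection and resection of replication forks, 7 were higher and 1 was lower in the SAFB precipitate, with a median log2 fold change of 0.41 against 0.46 over all genes. The share called higher, 7 of 26, stood near the 28.3% of coding genes. The higher ones were genes of fork protection and repair with one exception. Brca1 stood at 29.8 and 37.8 TPM in the IgG libraries and at 201 and 186 TPM in the SAFB libraries (log2 fold change 2.49 ± 0.16, SE; limma, adjusted p = 0.0041). Rif1, whose product limits resection, stood at 10.1 and 23.9 against 63.1 and 76.6 TPM (2.08 ± 0.43, SE), a call lost with the A content trend removed. Wrn, the neighbour of Purg, is also in this group. Brca2 (1.32 ± 0.28), Fancd2 (1.16 ± 0.32), Rbbp5 (1.0 ± 0.26) and Trp53bp1 (0.72 ± 0.11) passed in the values as deposited and missed the threshold once libraries were median-centred. Fbxo18, a helicase gene and the most abundant of the list, overlapped between the groups.

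Most genes of the SETD1 complexes, which methylate histone H3, were not called higher, as was true of coding genes at large (28.3% called higher). Setd1a, a catalytic subunit, stood at 99.2 and 75.6 TPM in the IgG libraries and at 38.3 and 42.6 TPM in the SAFB libraries (log2 fold change -1.08 ± 0.18, SE; limma, adjusted p = 0.015), a call lost with the GC or A content trend removed. Setd1b (-0.69 ± 0.24), Wdr5 (-0.33 ± 0.17) and Bod1 itself (-0.46 ± 0.23, SE) did not pass as deposited and were lower after median centring. Rbbp5 was the one subunit called higher. Ash2l (0.42 ± 0.14), Dpy30 (0.60 ± 0.23) and Wdr82 (0.29 ± 0.12, SE) had both SAFB libraries above both IgG libraries but were not called. Cxxc1 and Hcfc1 overlapped between the groups. After median centring the list held 3 higher and 4 lower genes. The number of higher genes in the list rose without IgG replicate 2 and fell without either SAFB replicate, as it did over all genes tested.

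Among 36 genes of autophagosome transport and of RUN and FYVE domain relatives of FYCO1, 35 were tested, of which 8 were higher and 2 lower, with a median log2 fold change of 0.23. Among all coding genes tested, 28.3% were called higher, and the difference was not tested. The genes of RAB7 and LC3 were not called higher. Rab7 stood at 117.4 and 117.9 TPM in IgG and 81.0 and 94.5 TPM in SAFB libraries (-0.42 ± 0.12, SE, limma adjusted p = 0.055). The LC3 gene Map1lc3b overlapped between the groups (0.03 ± 0.17). After median centring Rab7 was called lower (-0.88, limma adjusted p = 0.010), as were 21.8% of coding genes, and Map1lc3b was not called. Among the motors, the kinesin heavy chain gene Kif5b rose by 1.49 ± 0.12 (SE, limma adjusted p = 0.0049). The light chain gene Klc1 fell by 0.58 on the log2 scale (limma adjusted p = 0.035). With the GC trend removed the value of Klc1 was -0.003, and its call was also lost with the length or A content trend removed. The autophagy receptor genes Tax1bp1 (2.30 ± 0.13, SE) and Optn (1.54 ± 0.11) were higher, while the receptors Sqstm1 (-0.17 ± 0.10) and Nbr1 (0.57 ± 0.27), the most abundant of the list, were not called.

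Tax1bp1 came closest to Fyco1 among the called genes, at 51.3 and 60.4 TPM in the IgG libraries against 294 and 265 TPM in the SAFB libraries. Further calls were Stx17 (1.68 ± 0.25, SE) and Vamp8 (-0.45 ± 0.09), which encode SNARE proteins of autophagosome fusion and moved in opposite directions. The lipid kinase gene Pik3c3 (1.39 ± 0.13), its partner Uvrag (0.54 ± 0.14), Rufy2 (1.46 ± 0.19) and Rufy3 (1.02 ± 0.17) were called higher. Uvrag (0.084) and Rufy3 (0.56) missed the threshold once libraries were median-centred. Rufy4 had the largest value of the list, 2.70 ± 0.86, but its IgG libraries stood at 0.10 and 4.83 TPM and it was not called (adjusted p = 0.069). After median centring, 6 genes of the list were higher and 10 lower. More genes of the list were higher, and more were lower, without IgG replicate 1 or without IgG replicate 2, as over all genes tested. Neither Klc1 nor Vamp8 passed without SAFB replicate 1 or without SAFB replicate 2.

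In the list drawn up for Purg, the genes called in the values as deposited were all higher. Its PUR family genes are Pura and Purb, and the rest encode other RNA-binding proteins of granules. Of 16 genes of the PUR family and of RNA transport granules, 11 were higher and 0 lower, where 28.3% and 10.1% of coding genes were called, with a median log2 fold change of 1.06. At an unadjusted p under 0.05 in limma the counts were also 11 and 0. The 2 paralogs of Purg were higher by less than Purg itself: Pura stood at 17.2 and 15.8 TPM in IgG and 38.4 and 39.1 TPM in SAFB libraries (1.18 ± 0.18, SE), and Purb at 20.9 and 26.5 against 52.6 and 47.6 TPM (1.06 ± 0.19). Ybx1, which encodes an abundant mRNA-binding protein, stood at 109.6 and 105.4 TPM in IgG and 620.3 and 483 TPM in SAFB libraries (2.34 ± 0.15, SE; limma, adjusted p = 0.0042). Syncrip (1.36 ± 0.20), Fxr1 (1.27 ± 0.15), Stau1 (1.26 ± 0.11), the helicase gene Ddx3x (1.24 ± 0.16) and Caprin1 (1.07 ± 0.15) were higher too, also after median centring.

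Pura was higher after median centring as well, while Purb, Stau2, Ddx1 and Tial1 were not, which left 7 higher genes and 1 lower. Fewer genes of the list were higher without either SAFB replicate, as over all genes tested, and neither Pura nor Purb passed there. The stress granule genes G3bp1 (0.22 ± 0.11, SE) and G3bp2 and the fragile X gene Fmr1 (0.89 ± 0.36) were not called.

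**Figure D4:**
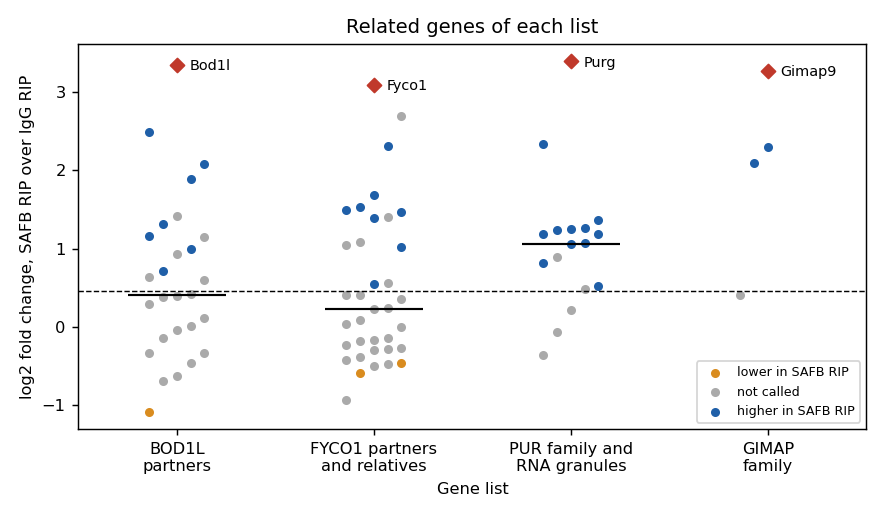
Log2 fold change (SAFB RIP over IgG RIP) of the tested genes of 4 lists, coloured by the limma call. A red diamond marks the gene among the 5 that each list was drawn up for. Bars are list medians (0.41, 0.23 and 1.06), the dashed line is the median of all genes, 0.46, and the GIMAP list has 3 tested genes, no bar, and a Gimap4 point that rests on the pseudocount since its IgG values are 0.

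The RNAs of the SAFB family genes were also called higher, as were 29.8% of all genes: Safb by 2.49 ± 0.11, Safb2 by 2.99 ± 0.10 and Sltm by 1.44 ± 0.17 on the log2 scale (SE). In all, 4964 of 16647 genes were higher and 1382 lower by limma, and 2736 were higher and 2935 lower after median centring. Under 16 other ways of processing, the log2 fold changes of the 5 genes, which their choice makes large, ranged from 2.25 to 3.41 for Bod1l, 2.63 to 3.11 for Fyco1, 2.93 to 3.73 for Purg, 2.53 to 3.61 for Gimap9 and 2.75 to 3.60 for Gm340. The highest values of Bod1l, Purg, Gimap9 and Gm340 came without IgG replicate 2.

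**Figure D5:**
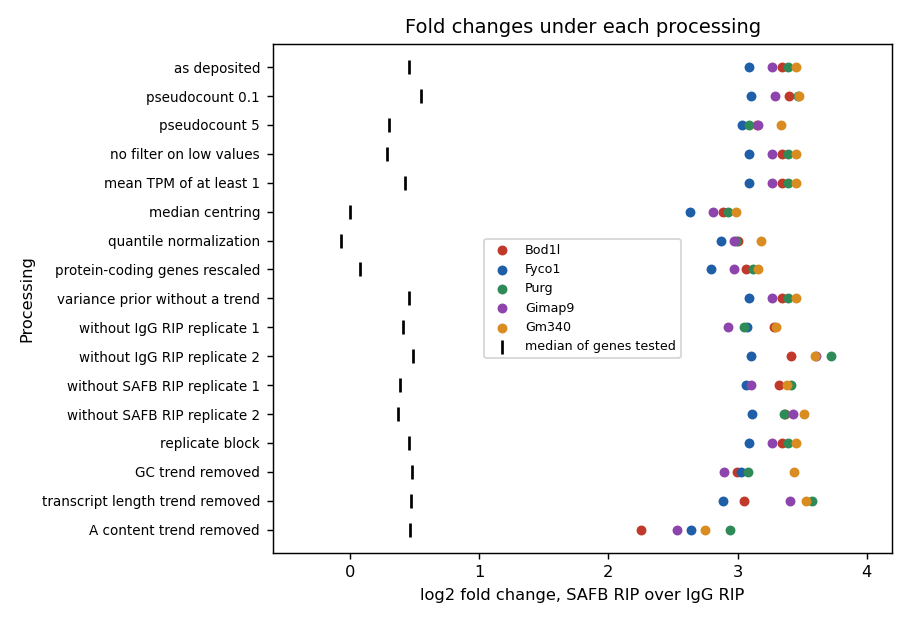
Log2 fold change (SAFB RIP over IgG RIP) of the 5 genes, as coloured points, under the values as deposited and 16 alternatives, with a black tick at the median of all genes tested. The 5 genes stay between 2.25 and 3.73, to the right of the tick in every row.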

How the data were processed

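RIP-seq values for 2 IgG and 2 SAFB libraries were taken from 1 table of TPM values deposited by the authors. Per the submitters' processing notes, HISAT2, HTSeq, StringTie and DESeq2 were used with the build mm10. Roles, versions and strand use were not given there, and the depth is unknown. Its 52197 entries held 52189 identifiers (14 entries sharing 6 of them were summed), of which 52042 were in GENCODE release M21.

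Genes that reached 1 TPM in 2 or more of the 4 libraries were fitted as log2(TPM + 1) with limma 3.58.1 (R 4.3.3), with a variance trend and Benjamini-Hochberg adjustment at 0.05. The procedure was tested on simulated data.

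The 5 genes and all lists were chosen with earlier results of these data known. Named genes are listed genes that passed, the 3 most abundant of each list, neighbours, the 3 nearest patterns, genes next in rank, and Safb, Safb2 and Sltm. Other listed genes were named after their values were seen. Exon, A content and shared-word measures, and the A content trend (lowess span 0.3), were added after seeing the data. Other alternatives cover the pseudocount, filter, scaling, variance trend, single libraries, a replicate block, and GC and length trends.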

Additional observations from a re-analysis of the deposited data

How the results depend on the processing

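The median log2 fold change of the 5 genes, large by their choice and 3.35 as deposited, was 2.89 after median centring and 2.64 with the A content trend removed. It was 3.60 at most, without IgG replicate 2. The counts of higher and lower genes over the table, 4964 and 1382, were 2736 and 2935 after median centring, 2758 and 2986 after quantile normalization, and 2600 and 2322 with protein-coding genes rescaled. The count of lower genes was 732 with the GC trend removed and 405 with the A content trend removed. Leaving out single libraries gave 2034 to 7781 higher and 571 to 2631 lower genes. The causes were not tested.

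A fit with a replicate block gave 4797 higher and 1264 lower genes, and the deviations of libraries with the same number correlated at r = -0.02, so the numbers were not taken to pair the libraries. Among 1967 values of 124 other named genes under the alternatives, 125 had the other sign, 118 of them for genes called neither as deposited nor under the alternative. The other 7 were Hnf4a (-0.45) and Alb (-0.029) after median centring, Cebpa (0.086) and Krt8 (0.65) with the GC trend removed, and Cebpa (0.18), Krt8 (0.41) and Sqstm1 (0.34) with the A content trend removed. The motif count over whole genes with introns was not run. TPM keeps no depth, so the counting error of genes near 0 could not be estimated.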
